A study of Mus musculus with 84 samples.

Results

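The 7 genes described here encode surface proteins that a T cell reads on another cell: the checkpoint ligands Cd274 (PD-L1) and Pdcd1lg2 (PD-L2), the costimulatory molecules Cd80, Cd86 and Cd40, and the adhesion molecules Icam1 and Vcam1. They were chosen by name, by a rule that uses no measured value but with earlier results of these data known. They were matched to the gene identifiers of the files through GRCm38 gene symbols. All 7 were among the 48526 genes listed in the table of experimental autoimmune encephalomyelitis (EAE), and 6 of them were among the 25773 genes listed in the table of astrocyte subtypes, where Pdcd1lg2 was not listed.

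Signals from these proteins decide how a T cell behaves after it has met its antigen. PD-L1 and PD-L2 bind PD-1 on the T cell and restrain it, CD80 and CD86 bind CD28 or CTLA-4 and give or withhold the second signal for activation, and CD40 is the receptor through which CD40L on T helper cells activates an antigen-presenting cell. ICAM-1 and VCAM-1 bind the integrins LFA-1 and VLA-4 and hold leukocytes on endothelium and on other cells. In the inflamed central nervous system these genes are best known from endothelium, microglia and infiltrating myeloid cells, and cultured astrocytes are known to produce PD-L1, ICAM-1 and VCAM-1 after exposure to interferon-gamma or TNF.

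RNA from sorted mouse astrocytes was sequenced from the 3′ end of transcripts in 84 libraries. In the EAE experiment, 66 libraries in 12 groups came from female C57BL/6 mice, either unimmunized controls or immunized at 10 weeks of age. Immunized mice had received myelin oligodendrocyte glycoprotein peptide in complete Freund's adjuvant with pertussis toxin. They were taken at score 1 (limp tail), at score 4 (complete paralysis of the hind legs) or in the chronic phase. Their age when taken, and an age for the controls, are not given in the study's methods. Astrocytes were sorted as CD11Bneg CD45neg ACSA-2pos cells, ACSA-2 being an epitope on the ATPase subunit ATP1B2, and were split by the surface glutamate transporter GLAST into hindbrain GLASTneg, hindbrain GLASTpos and spinal cord GLASTneg cells. In the subtype experiment, 18 libraries made 6 groups: 15 libraries in 5 groups were sorted in the same way from forebrain, hindbrain and spinal cord of FVB/N mice, and 3 libraries in 1 group were astrocytes cultured from the cerebrum of newborn C57BL/6J mice, shaken free of microglia and treated with medium conditioned by L cells. Groups held 3 to 6 libraries, and a library could hold the pooled cells of 2 mice. No label states which libraries came from separate animals, so the p-values below measure the spread between libraries. The EAE titles carry a first number that 40 pairs of libraries from different groups share, each time within the same stage. The sources do not say whether it marks an animal, and the main test did not pair libraries by it. For 1 score 1 spinal cord library, replicate 1, the region field says hindbrain while its title says spinal cord, and the title was followed.

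The EAE libraries held 1313682 to 4895220 counted reads with a median of 2936680. Levels are given as counts per 1000000 counted reads (CPM) on library sizes scaled by the TMM factors of edgeR, and 3 reads, the limit that a count of 0 allows, correspond to 0.634 to 2.44 CPM in these libraries. The isolated FVB/N libraries were shallower, with 416768 to 1269316 reads and 3 reads at 2.45 to 7.05 CPM. Levels are compared between groups for the same gene and not between genes. The sort gate was visible in the data: Slc1a3, which encodes GLAST, stood at 7168 ± 1504 CPM in control hindbrain GLASTpos libraries and at 1373 ± 245 CPM in control GLASTneg libraries (SD, n = 5 each). The summed level of 10 astrocyte markers was 18274 to 27044 CPM in all hindbrain GLASTneg libraries and 13071 to 18366 CPM in control spinal cord, but 2430 to 3930 CPM in spinal cord at score 4 and 3500 to 5976 CPM in chronic spinal cord. In the same spinal cord libraries the sum of 9 oligodendrocyte markers was 13662 to 39350 CPM in controls, 28032 to 71602 CPM at score 4 and 24244 to 39236 CPM in the chronic phase, above the astrocyte sum in each library of both EAE stages. These are bulk samples, in which fewer cells of a type and less RNA per cell cannot be told apart.

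The genes lie on 5 chromosomes of GRCm38. Cd274 occupies chromosome 19 from 29367455 to 29388095 and Pdcd1lg2 follows it on the same strand from 29410919 to 29471161. Cd80 (38455561 to 38496335, plus strand) and Cd86 (36603869 to 36666081, minus strand) lie on chromosome 16, Cd40 on chromosome 2 (165055627 to 165072948), Icam1 on chromosome 9 (21015985 to 21028817) and Vcam1 on chromosome 3 (116109949 to 116129688, minus strand). An annotated gene on the opposite strand overlaps Cd274, Pdcd1lg2, Icam1 and Vcam1, and with no statement of whether counting used strand, reads of the partner cannot be told apart from theirs.

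The promoters of Cd274 and Icam1 are shown because these genes were called higher together in EAE. The sequences are RefSeq promoters of GRCm38.p6, 250 bases before to 50 bases after the start that RefSeq gives, at chr19:29367188-29367487 and chr9:21015690-21015989, both on the plus strand. That start is not the gene start given above for Cd274, Icam1 or Cd80. Capitals would mark a match to the letters of the 2 motifs searched below, and these windows hold no such match.
Cd274: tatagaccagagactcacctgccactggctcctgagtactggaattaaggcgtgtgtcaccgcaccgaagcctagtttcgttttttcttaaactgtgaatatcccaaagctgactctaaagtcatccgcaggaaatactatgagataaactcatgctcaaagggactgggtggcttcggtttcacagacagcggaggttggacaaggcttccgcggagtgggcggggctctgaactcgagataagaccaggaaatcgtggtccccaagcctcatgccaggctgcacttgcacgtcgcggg
Icam1: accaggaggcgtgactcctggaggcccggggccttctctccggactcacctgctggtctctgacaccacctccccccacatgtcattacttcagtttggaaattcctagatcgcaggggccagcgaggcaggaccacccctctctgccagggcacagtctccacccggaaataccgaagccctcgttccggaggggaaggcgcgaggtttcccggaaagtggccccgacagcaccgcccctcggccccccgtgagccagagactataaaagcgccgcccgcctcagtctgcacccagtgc
The interferon-stimulated response element (ISRE) was searched as TTTC, any 2 bases and TTTC, on both strands. The kappaB motif was searched as GGG, A or G, any 2 bases, 2 bases that are C or T, and CC, also on both strands. A site that departs from these letters at any base was not marked. The Icam1 window holds tggaaattcc, which differs from the kappaB letters at its first base only, so the search does not show that a kappaB site is absent. Pdcd1lg2 held 1 kappaB match, starting at position -244 from its RefSeq start. The Cd80 window, chr16:38458683-38458982, lies inside the gene as given above and held neither motif. Of all 32851 promoters of this length, 3.44% held an ISRE match and 8.46% a kappaB match. No entry was given for Cd86, Cd40 and Vcam1.

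Most of these genes were read rarely. Vcam1 had more than 3 reads in all 66 EAE libraries and 43878 reads in total, Cd274 in 53 libraries with 5223 reads, and Icam1 in 34 libraries with 576 reads. Cd86 had more than 3 reads in 17 libraries (225 reads in total), Cd40 in 7 (63 reads), Cd80 in 2 (23 reads) and Pdcd1lg2 in 1 (10 reads).

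The question the EAE design puts to these genes is whether their transcripts change in each astrocyte population as disease develops. Differences were tested with the quasi-likelihood test of edgeR on the counts of all 66 libraries, and a gene is called where its p, adjusted over all 23324 genes tested, is under 0.05 and its log2 fold change is above 1 or below -1. In spinal cord, 3 of the 7 genes were called at score 1 against 6.17% of all genes, 4 of 7 at score 4 against 17.9%, and 3 of 7 in the chronic phase against 14.7%. Cd274 and Icam1 were called higher and Vcam1 lower at each of these stages, and Cd86 was called higher at score 4. In hindbrain GLASTneg cells 1 of 7 was called at score 1 (Cd274), against 0.643% of all genes, 2 of 7 at score 4 (Cd274 and Icam1), against 0.729%, and 0 of 7 in the chronic phase, against 0.193%. In hindbrain GLASTpos cells 2 of 7, again Cd274 and Icam1, were called at score 1, against 1.49%, and at score 4, against 2.03%, and 0 of 7 in the chronic phase, against 1.31%. In both chronic hindbrain comparisons with no call, 2 genes in GLASTneg and 3 in GLASTpos cells had an unadjusted p under 0.05, and DESeq2 called 0 in GLASTneg and 1 in GLASTpos cells (Cd274). The plot of log2 fold changes sets the stages and populations side by side.

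**Figure D1:**
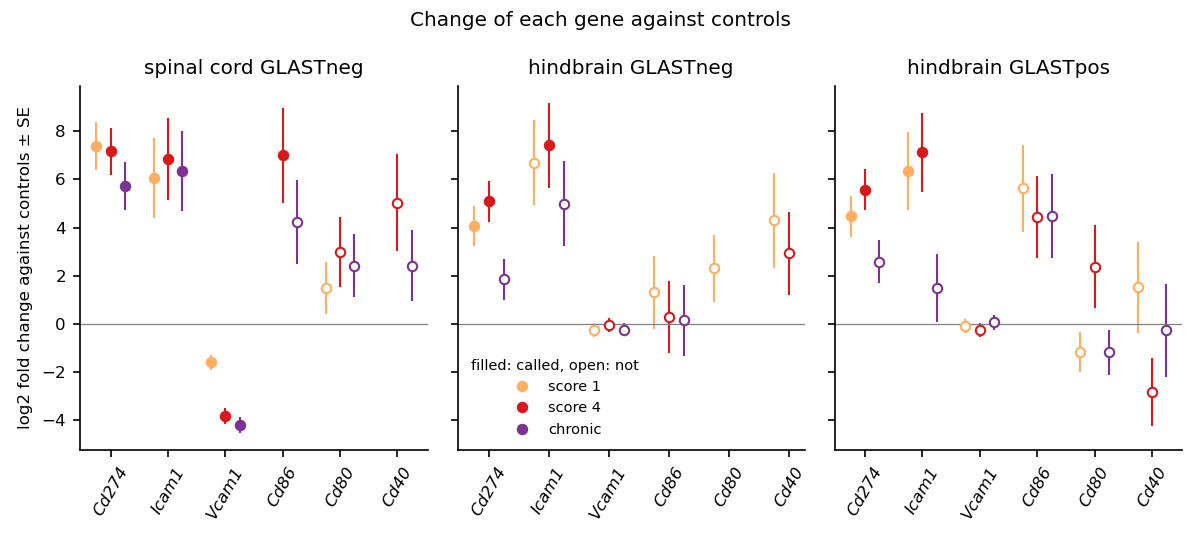
Fitted log2 fold change against controls of the same population (y axis, edgeR) for 6 of the genes at score 1, score 4 and in the chronic phase (x axis), in spinal cord, hindbrain GLASTneg and hindbrain GLASTpos astrocytes. Error bars are standard errors derived from the F statistic, filled points are calls, and genes with 0 reads in both groups have no point. Where all controls are at 0, as for Icam1, the fitted value depends on the prior count of the fit. Cd274 lies above 0 in all 9 comparisons, and Vcam1 is at -3.82 and -4.23 in spinal cord at score 4 and in the chronic phase while it stays near 0 in hindbrain.

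Cd274, the PD-1 ligand that restrains T cells, was low in controls and was called higher in all 3 populations at score 1 and score 4. In the 5 control spinal cord libraries it stood at 0, 0, 0, 0.468 and 1.26 CPM. At score 1 the 5 spinal cord libraries gave 11.7, 32.2, 35.1, 88.6 and 169 CPM. At score 4 the 6 libraries ran from 21 to 82.3 CPM with a median of 63.5, and in the chronic phase from 3.38 to 52.7 CPM with a median of 11.2. Every EAE spinal cord library was thus above every control, and the score 1 libraries were the most spread. The means of 67.2 ± 63.4, 57.8 ± 22.7 and 21.4 ± 21.4 CPM (SD, n = 5, 6 and 6) were 195, 168 and 61.9 times the control mean of 0.345 ± 0.548 CPM, which rests on 5 reads. From the pooled reads alone the ratios have exact 95% intervals of 74.8 to 540, 68.6 to 496 and 22.8 to 166, which cover counting error only. The fitted log2 fold changes were 7.39 ± 1.01 at score 1 (SE, edgeR adjusted p = 1.69e-07), 7.17 ± 0.99 at score 4 (adjusted p = 1.86e-08) and 5.72 ± 0.99 in the chronic phase (adjusted p = 4.72e-06). Control replicate 4 held 4 of the 5 control reads, and without it they were 8.92, 8.72 and 7.28.

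In hindbrain GLASTneg controls Cd274 was at 0.666, 0.693, 0.85, 1.69 and 3.68 CPM. The 6 libraries at score 1 ran from 8.95 to 40.5 CPM with a median of 27.4, and those at score 4 from 18.4 to 92.4 CPM with a median of 48.9. Neither stage overlapped the controls, and the log2 fold changes were 4.07 ± 0.84 (SE, edgeR adjusted p = 0.0026) and 5.09 ± 0.86 (adjusted p = 4.43e-05). Chronic libraries ran from 0 to 15.3 CPM with a median of 3, overlapped the controls and were not called (log2 fold change 1.85, adjusted p = 0.653).

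In hindbrain GLASTpos controls it was at 0, 0, 0.379, 2.28 and 2.86 CPM. At score 1 the 6 libraries ran from 6.49 to 45.7 CPM with a median of 21.5 and did not overlap the controls. At score 4 they ran from 0.466 to 85.4 CPM with a median of 51.6, and replicate 1, with 2 reads, lay among the controls. The log2 fold changes were 4.47 ± 0.85 (SE, edgeR adjusted p = 0.000497) and 5.58 ± 0.87 (adjusted p = 6.5e-06). That score 4 library also held no Icam1 read, and its summed T cell markers, at 287 CPM, were the highest of the EAE libraries. Without it the score 4 mean of Cd274 went from 49.7 ± 33.3 to 59.5 ± 25.7 CPM (SD, n = 6 and 5) and the call was kept (log2 fold change 5.84, adjusted p = 4.63e-07). In the chronic phase the 4 libraries gave 3.31, 5.04, 6.51 and 9.82 CPM, all above the controls, but the difference was not called (log2 fold change 2.58, adjusted p = 0.128), while DESeq2 called it (2.61, adjusted p = 0.0467).

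From score 4 to the chronic phase Cd274 fell in both hindbrain populations. The mean was 9.59 times lower in GLASTneg cells (log2 fold change -3.24 ± 0.68, SE, edgeR adjusted p = 0.0168) and 8.05 times lower in GLASTpos cells (-3.00 ± 0.77, adjusted p = 0.0127). The GLASTneg call was lost on leaving out chronic replicate 2, 4, 5 or 6 or score 4 replicate 5 (adjusted p from 0.0569 to 0.101), and the GLASTpos call on leaving out chronic replicate 2 (adjusted p = 0.0675). In spinal cord the mean was 2.7 times lower and the call was not made (-1.45 ± 0.61, adjusted p = 0.163). No call was made between score 1 and score 4 in any population. The change from controls in spinal cord did not differ by call from that in hindbrain GLASTneg cells at any stage. The differences of the log2 fold changes were 3.32 at score 1, 2.08 at score 4 and 3.87 in the chronic phase (adjusted p = 0.282, 0.422 and 0.0756), and the chronic one was called by DESeq2 (adjusted p = 0.0132) and when no filter on low counts was used (0.0251).

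**Figure D2:**
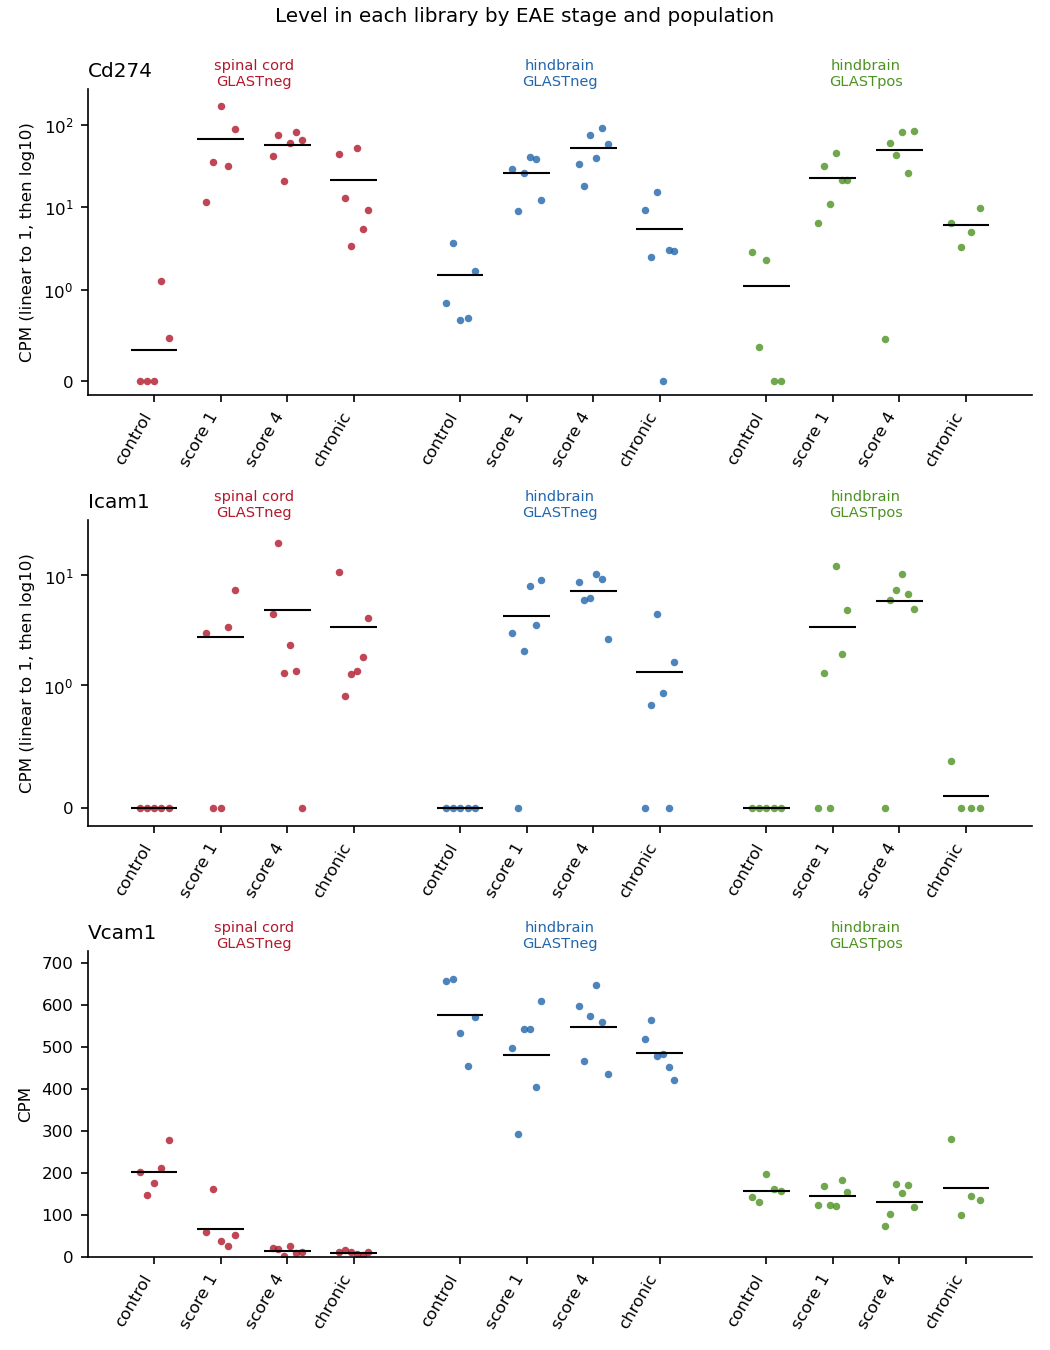
Level of Cd274, Icam1 and Vcam1 (y axis, CPM) in each of the 66 EAE libraries (points), by stage and population (x axis), with a bar at each group mean. The axis is linear near 0 and logarithmic above for Cd274 and Icam1, and linear for Vcam1. All Icam1 controls lie at 0, and the spinal cord Vcam1 points at score 4 and in the chronic phase lie between 3.37 and 25.7 CPM, under all 5 spinal cord controls.

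The cell makeup of the spinal cord libraries moved with the stage, so Cd274 was also divided by marker sums of the same library, a scale added after these sums had been seen. Per 1000 CPM of astrocyte markers, Cd274 was 0.0198 ± 0.032 CPM in control spinal cord (SD, n = 5), 11.9 ± 15.8 at score 1, 18.5 ± 8.93 at score 4 and 5.32 ± 6.11 in the chronic phase. Per 1000 CPM of oligodendrocyte markers it was 0.0211 ± 0.0322, 1.65 ± 1.19, 1.31 ± 0.745 and 0.635 ± 0.564. On both scales all EAE spinal cord libraries lay above all controls (exact permutation test, two-sided, p adjusted over 27 such comparisons from 0.0106 to 0.0153). Which of these cells carried the transcript was not tested.

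Pdcd1lg2, the other PD-1 ligand, had 10 reads in the EAE experiment, and no library held more than 5. Those 5 reads were in chronic hindbrain GLASTpos replicate 2, at 1.38 CPM. All 15 control libraries had 0 reads, which at this depth allows a level of up to 0.736 to 2 CPM, depending on the library. The gene was called in no comparison.

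Cd86, a CD28 ligand of antigen-presenting cells, was called higher in spinal cord at score 4. Controls and score 1 libraries of spinal cord all had 0 reads. At score 4 the 6 libraries held 0, 0, 1, 2, 8 and 61 reads, from 0 to 27.4 CPM with a median of 0.694, so that 1 library, replicate 2, held most of the reads and the groups overlapped. The mean of 5.39 ± 10.9 CPM (SD, n = 6) was at least 4.75-fold higher than in controls (edgeR adjusted p = 0.00586) and at least 5.21-fold higher than at score 1 (adjusted p = 0.0163). Without replicate 2 the mean was 0.988 ± 1.51 CPM (n = 5), with an adjusted p of 0.0479 against controls and 0.108 against score 1. The titles carry a number after the letter S, and with a term for whether it was above 56 the log2 fold change against controls was 3.67 and the adjusted p 0.328. Of the spinal cord libraries, this number was above 56 in 5 of 5 controls, 4 of 5 at score 1, 1 of 6 at score 4 and 4 of 6 in the chronic phase, and the sources do not say what it stands for.

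The same library stood apart by its myeloid transcripts. The sum of 12 myeloid markers was 3156 CPM in score 4 spinal cord replicate 2 and 62.1 to 172 CPM in the 5 others of its group, against 6.91 to 28.8 CPM in the controls, and its neutrophil marker sum was 531 CPM. Over all libraries of the EAE experiment, the 17 with more than 3 Cd86 reads had myeloid sums of 35.3 to 3156 CPM with a median of 133, and the other 49 had sums of 6.91 to 213 CPM with a median of 79.3. These 49 include all unimmunized controls but 1, so this contrast also holds that of controls with EAE stages. The sort gate removed CD45 and CD11B positive cells, and the part of the remaining myeloid RNA in the Cd86 result was not tested. The plot of Cd86 and Cd40 against the myeloid sum shows how far this library lies from the rest.

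**Figure D3:**
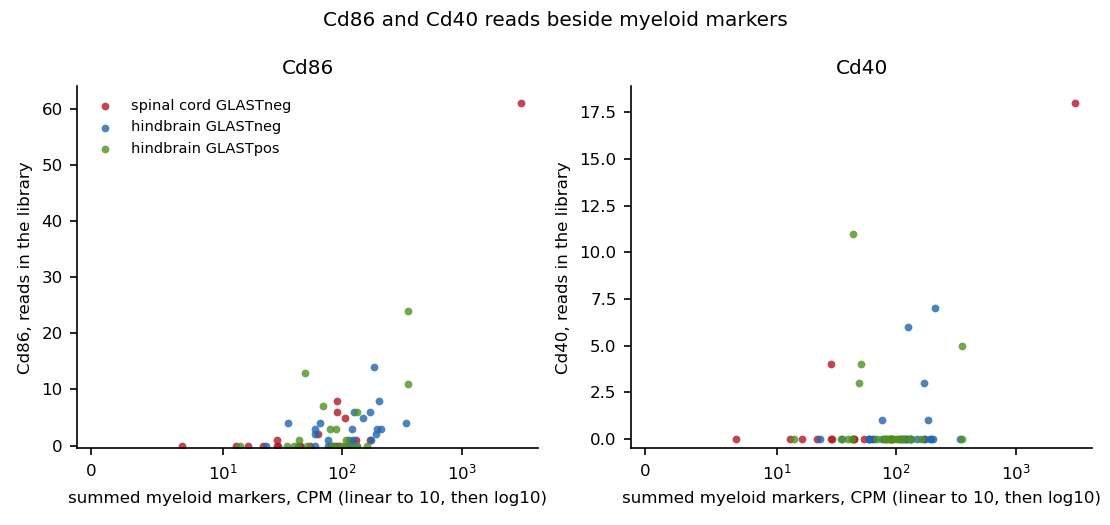
Reads of Cd86 and Cd40 (y axis) against the summed CPM of 12 myeloid markers (x axis, logarithmic) in the 66 EAE libraries, 1 point a library, coloured by population. The score 4 spinal cord library at 3156 CPM holds 61 Cd86 and 18 Cd40 reads, and all other libraries lie at 356 CPM or less.

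In hindbrain Cd86 stayed low. Its group means were 0.911 ± 1.09 CPM in GLASTneg controls and 2.3 ± 2.02, 1.11 ± 1.08 and 0.996 ± 1.17 CPM at the 3 stages (SD, n = 5, 6, 6 and 6), with overlapping libraries and no call. GLASTpos controls had 0 reads, and the means at the 3 stages were 2.06 ± 3.36, 0.862 ± 1.08 and 0.897 ± 1.79 CPM (n = 6, 6 and 4), also with no call. Single libraries held most of the reads there too, with 24 reads in score 1 replicate 4 and 13 in chronic replicate 2.

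Cd40, through which T helper cells activate antigen-presenting cells, was called in no comparison. It had 18 reads (8.09 CPM) in score 4 spinal cord replicate 2, the library with the high myeloid sum, and 0 reads in the 5 others of that group (fitted log2 fold change 5.03, edgeR adjusted p = 0.0631). Elsewhere it had at most 11 reads, in score 1 hindbrain GLASTpos replicate 1. Cd80, the other CD28 ligand, had at most 8 reads in an EAE library, in score 4 hindbrain GLASTpos replicate 2 at 1.99 CPM, and was called in no comparison.

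Icam1, the ligand of the integrin LFA-1, went from 0 reads in all 15 control libraries to a few CPM in EAE. In hindbrain GLASTneg cells the 6 libraries at score 1 ran from 0 to 9.13 CPM with a median of 3.26. At score 4 they ran from 2.67 to 10.3 CPM with a median of 7.5, and in the chronic phase from 0 to 4.44 CPM with a median of 0.891. Only the score 4 libraries were all above the controls. Their mean of 7.2 ± 2.8 CPM (SD, n = 6) was at least 4.88-fold higher (edgeR adjusted p = 0.017), and the call was lost when any 1 of the 5 controls was left out (adjusted p from 0.0529 to 0.0672). The score 1 mean of 4.27 ± 3.53 CPM was not called (adjusted p = 0.051), although DESeq2, either other filter on low counts and a fit to this population alone called it.

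In hindbrain GLASTpos cells Icam1 ran from 0 to 12.3 CPM at score 1 with a median of 1.62, and from 0 to 10.4 CPM at score 4 with a median of 6.36. The means of 3.41 ± 4.73 and 5.9 ± 3.42 CPM (SD, n = 6 each) were at least 3.52-fold and at least 6.09-fold higher than in controls (edgeR adjusted p = 0.0231 and 0.00706), with 1 or more libraries at 0 in each stage. The score 1 call was lost on leaving out score 1 replicate 4 or any 1 of the 5 controls (adjusted p from 0.0542 to 0.0953). The chronic libraries held 1, 0, 0 and 0 reads against 115 reads in the 6 libraries at score 4, a pooled ratio of 82.3 (exact 95% interval of the counts 14.5 to 3279). The difference was called (edgeR adjusted p = 0.0328), a call lost on leaving out chronic replicate 2, 3 or 4 (adjusted p from 0.0919 to 0.112).

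In spinal cord the Icam1 values at score 1 were 0, 0, 2.99, 3.43 and 7.31 CPM. At score 4 the 6 libraries ran from 0 to 19.8 CPM with a median of 1.85, and in the chronic phase from 0.917 to 10.8 CPM with a median of 1.58. Every chronic library had reads, but 2 of the 6 held no more than the 3 reads that a count of 0 allows, while score 1 and score 4 held libraries at 0. The means of 2.74 ± 3.02, 4.88 ± 7.45 and 3.38 ± 3.82 CPM (SD, n = 5, 6 and 6) were at least 2.42-fold, 4.3-fold and 2.98-fold higher (edgeR adjusted p = 0.0136, 0.00144 and 0.00366). Score 4 replicate 2, with the high myeloid sum, was the library at 19.8 CPM, and without it the mean was 1.9 ± 1.68 CPM (n = 5) and the call was kept (adjusted p = 0.0101). With only the spinal cord libraries whose S number was above 56, score 4 had 1 library left and a log2 fold change of 5.02, with an adjusted p of 0.138 that takes its spread from the other groups. Marker sums of other cell types also differed alongside Icam1. Over the EAE experiment, the 34 libraries with more than 3 Icam1 reads had myeloid sums with a median of 111 CPM, and the other 32 a median of 56 CPM. These 32 include every unimmunized control, so this contrast also holds that of controls with EAE stages. The sum of 8 endothelial markers was 6.94 to 13.6 CPM in control spinal cord, 10.5 to 32.1 CPM at score 1, 18.4 to 40.4 CPM at score 4, where it did not overlap the controls, and 1.5 to 18.9 CPM in the chronic phase. Most of the score 4 sum was Kdr (26.1 ± 12.8 CPM), while Tek and Tie1 had 0 reads and the means of Cldn5 and Cdh5 were 0.225 and 0.149 CPM. Without score 4 replicate 2, 0 of the 6 endothelial markers tested were called higher at score 4. Under that setting 1 was called lower (Esam, log2 fold change -6.16, edgeR adjusted p = 0.0214), and the list went both ways. Pecam1, Kdr and Flt1 had log2 fold changes of 4.59, 2.34 and 0.81, Cldn5 of -2.92 and Tek of 0.00, none of them called. With all libraries the median of the 6 was 1.06. The part of myeloid or endothelial RNA in the Icam1 values was not tested. No test of the difference in response between populations could be read for Icam1, since its controls were at 0 in all 3.

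Vcam1, the ligand of the integrin VLA-4, fell in spinal cord, where Cd274 and Icam1 rose, and was not called in hindbrain. The 5 spinal cord controls gave 148, 177, 202, 212 and 278 CPM. At score 1 the libraries gave 25.7, 37.1, 51.5, 60.5 and 162 CPM. At score 4 they ran from 3.37 to 25.7 CPM with a median of 15, and in the chronic phase from 3.9 to 16.5 CPM with a median of 12.2. All libraries of score 4 and of the chronic phase lay below every control, as did 4 of 5 at score 1, where replicate 2 at 162 CPM lay among the controls. The means fell from 203 ± 48.7 CPM to 67.4 ± 54.7, 14.7 ± 8.18 and 10.7 ± 4.67 CPM (SD, n = 5, 5, 6 and 6), which is 3.02, 13.9 and 19 times lower. The log2 fold changes were -1.60 ± 0.32 at score 1 (SE, edgeR adjusted p = 0.000271), -3.82 ± 0.33 at score 4 (adjusted p = 8.89e-16) and -4.23 ± 0.33 in the chronic phase (adjusted p = 2.31e-17). Between score 1 and score 4 Vcam1 fell by a further 2.22 ± 0.32 on the log2 scale (adjusted p = 1.34e-07). Without score 1 replicate 2, which also had the highest astrocyte sum of its group at 22252 CPM, the score 1 mean was 43.7 ± 15.4 CPM (n = 4), the log2 fold change from controls was -2.22 (adjusted p = 2.23e-07) and that from score 1 to score 4 was -1.57 (adjusted p = 0.000114).

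In hindbrain GLASTneg cells Vcam1 was at 576 ± 87.8 CPM in controls and at 482 ± 114, 548 ± 80.7 and 487 ± 50.3 CPM at score 1, at score 4 and in the chronic phase (SD, n = 5, 6, 6 and 6). GLASTpos cells gave 158 ± 25.4, 147 ± 26.7, 132 ± 40.3 and 165 ± 78.5 CPM (n = 5, 6, 6 and 4). The groups of each population overlapped, and no hindbrain comparison was called. The test of the difference between the spinal cord and hindbrain GLASTneg responses was called at score 4 (-3.75 ± 0.44 on the log2 scale, edgeR adjusted p = 3.72e-10) and in the chronic phase (-3.99 ± 0.44, adjusted p = 5.49e-11), but not at score 1 (-1.34 ± 0.43, adjusted p = 0.16), where limma-voom with the first number of the title as a random block called it (-1.65, adjusted p = 0.0064).

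The astrocyte markers fell in the same spinal cord libraries, with 8 of 10 called lower and 1, Gfap, called higher at score 4 (background 17.9%). Their median log2 fold change was -0.89 at score 1, -3.50 at score 4 and -3.86 in the chronic phase. For Vcam1 it was -1.60, -3.82 and -4.23. The marker sum includes Gfap, so a ratio to it does not show whether Vcam1 fell more than the median marker. Per 1000 CPM of astrocyte markers, Vcam1 was at 8.7 to 15.2 CPM in control spinal cord, 4.27 to 8.6 at score 1, 1.39 to 6.97 at score 4 and 0.703 to 3.29 in the chronic phase. On this scale each EAE spinal cord library lay below all controls, score 1 replicate 2 included. The log2 differences from controls were smaller than for Vcam1 CPM, at -0.90, -1.66 and -2.62 (exact permutation test, two-sided, p = 0.00794, 0.00433 and 0.00433, adjusted over 27 comparisons 0.0153, 0.0106 and 0.0106). In hindbrain none of the 6 comparisons on this scale had an adjusted p under 0.0615. With only the spinal cord libraries whose S number was above 56, Vcam1 CPM was called lower at score 1 (log2 fold change -1.46) and in the chronic phase (-3.92), and score 4 had 1 library left, at -5.88.

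**Figure D4:**
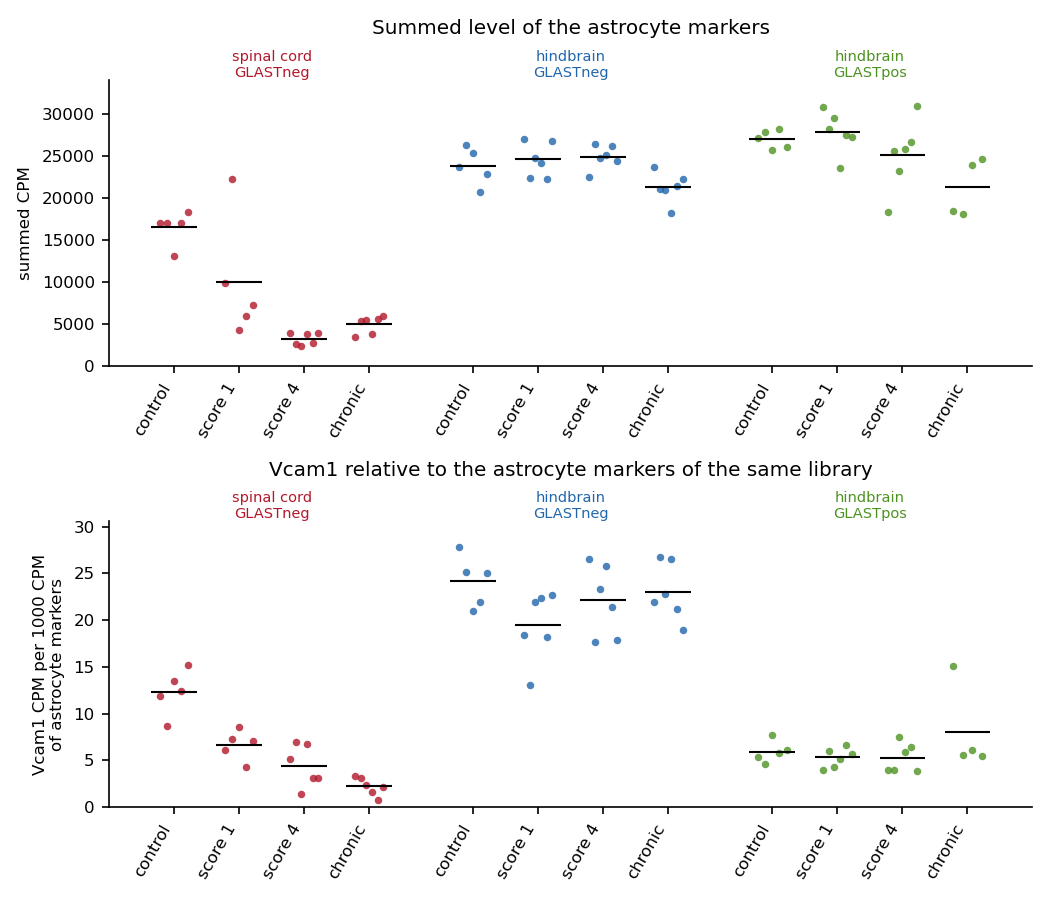
Summed CPM of 10 astrocyte markers (upper panel) and Vcam1 CPM per 1000 CPM of those markers (lower panel) in each EAE library (points), by stage and population (x axis), with a bar at each group mean. In spinal cord both fall: the ratio is 8.7 to 15.2 in controls and 0.703 to 3.29 in the chronic phase, while hindbrain GLASTneg libraries stay between 13.1 and 27.8.

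Over the comparisons of a later with an earlier stage, the 7 genes gave 5 calls, which are the Cd86 and Vcam1 calls in spinal cord between score 1 and score 4 (background 4.81%), the Cd274 call in GLASTneg cells (0.0857%), and the Cd274 and Icam1 calls in GLASTpos cells (3.61%) between score 4 and the chronic phase. None was made in spinal cord between score 4 and the chronic phase (3.16%), nor in hindbrain between score 1 and score 4, where 0% and 0.0214% of all genes were called. Of the differences between spinal cord and hindbrain GLASTneg responses, the call counts were 0 of 7 at score 1 (background 0.214%), 1 of 7 at score 4 (7.92%) and 1 of 7 in the chronic phase (6.80%), both of them Vcam1. The responses of hindbrain GLASTpos and GLASTneg cells differed by call for 0 of the 7 genes at each stage, by edgeR and by DESeq2, where 0.00857%, 0.00857% and 0.0600% of all genes were called, and 1, 2 and 1 of the 7 had an unadjusted p under 0.05.

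Among unimmunized mice, 1 of the 7 genes was called in each comparison of populations, and it was Vcam1. Its level of 576 ± 87.8 CPM in hindbrain GLASTneg cells was 2.83 times that in spinal cord and 3.64 times that in hindbrain GLASTpos cells. The log2 fold change of spinal cord against GLASTneg cells was -1.50 ± 0.31 (SE, edgeR adjusted p = 0.000524, background 4.20%). That of GLASTpos against GLASTneg cells was -1.86 ± 0.32 (adjusted p = 7.13e-06, background 10.5%). The 5 libraries of each of the other two groups, at 148 to 278 and 130 to 197 CPM, lay below the lowest GLASTneg library at 454 CPM, and overlapped each other. Cd86 was called lower in GLASTpos than in GLASTneg controls only by limma-voom with that block among the settings tried (-2.30, adjusted p = 0.0464). All hindbrain GLASTneg libraries had an S number of 56 or less and all GLASTpos and control spinal cord libraries one above 56, so that this number and the population cannot be told apart here. The median of all genes was -0.11 on the log2 scale in the comparison of GLASTpos with GLASTneg controls.

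In the FVB/N libraries the same levels depend on which names are believed. The titles put Vcam1 at 543 ± 26 CPM in the libraries labelled forebrain GLASTneg, 334 ± 59.9 in forebrain GLASTpos, 402 ± 20 in hindbrain GLASTneg, 602 ± 36.9 in hindbrain GLASTpos and 207 ± 101 in spinal cord GLASTneg (SD, n = 3 each). The single values of the last group were 90.5, 255 and 276 CPM, and all other isolated libraries were at or above 272 CPM. Slc1a3 goes against these titles: its median was 10352 CPM in the libraries labelled spinal cord GLASTneg, 5871 in hindbrain GLASTpos and 750 in hindbrain GLASTneg. A table of the study that holds the same columns gives 12 of the 15 libraries another group, and by its names Vcam1 was at 543 ± 26 CPM in forebrain GLASTneg, 602 ± 36.9 in forebrain GLASTpos, 334 ± 59.9 in hindbrain GLASTneg, 207 ± 101 in hindbrain GLASTpos and 402 ± 20 in spinal cord cells. By those names the 3 Slc1a3 medians above belong to hindbrain GLASTpos, forebrain GLASTpos and spinal cord GLASTneg cells, in that order. By the titles, 0 of the 3 genes tested were called between the libraries labelled hindbrain GLASTpos and GLASTneg, spinal cord and hindbrain GLASTneg, or forebrain GLASTpos and GLASTneg (edgeR and DESeq2 both, backgrounds 3.98%, 7.03% and 1.21%), and 1 of them had an unadjusted p under 0.05 in each. For the spinal cord title Vcam1 had a log2 fold change of -0.98 ± 0.26 with an adjusted p of 0.00745, just short of the fold limit, and with the other names the same comparison gave 0.28. With the other names 0 of the 3 genes were called in each comparison as well. Vcam1 then had a log2 fold change of -0.70 ± 0.26 between hindbrain GLASTpos and GLASTneg cells (edgeR adjusted p = 0.129).

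Cd274, Icam1, Cd86 and Cd80 were at the limit of detection in these mice under either naming. Over the 15 isolated FVB/N libraries Cd274 had 12 reads, Cd86 10, Cd80 6, all in 1 library, Icam1 2 and Cd40 0. In cultured astrocytes Icam1 stood at 4.6, 8.75 and 8.92 CPM, while the isolated libraries had 0 reads but for 1 with 2 reads at 2.34 CPM. A count of 0 in an isolated library allows up to 2.45 to 7.05 CPM, so the lowest culture is not above that limit in each of them. It was the only one of 5 genes tested that was called between cultured and isolated cells, where 31.7% of all genes were called and the median of all genes was 0.43 on the log2 scale (log2 fold change 5.94 ± 1.20, SE, edgeR adjusted p = 0.000154). DESeq2 did not call it (4.66, adjusted p = 0.143). Vcam1 was at 203, 269 and 274 CPM in culture, lower than the isolated mean but within the range of single isolated libraries, and under the fold limit (-0.65 ± 0.22, adjusted p = 0.0168).

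Cultured cells had 7, 8 and 8 reads of Cd274 (0.914 to 2.78 CPM), 2, 8 and 7 of Cd80, and 0, 6 and 25 of Cd86. The culture with 25 Cd86 reads had a myeloid marker sum of 2255 CPM, against 283 and 474 CPM in the others, and the 3 cultures had endothelial marker sums of 221 to 264 CPM, against 2.92 to 41.8 CPM in the isolated libraries. The part of those cells in the cultured values was not tested. The cultures also came from another strain and from newborn mice, so that culture, strain and age cannot be told apart.

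**Figure D5:**
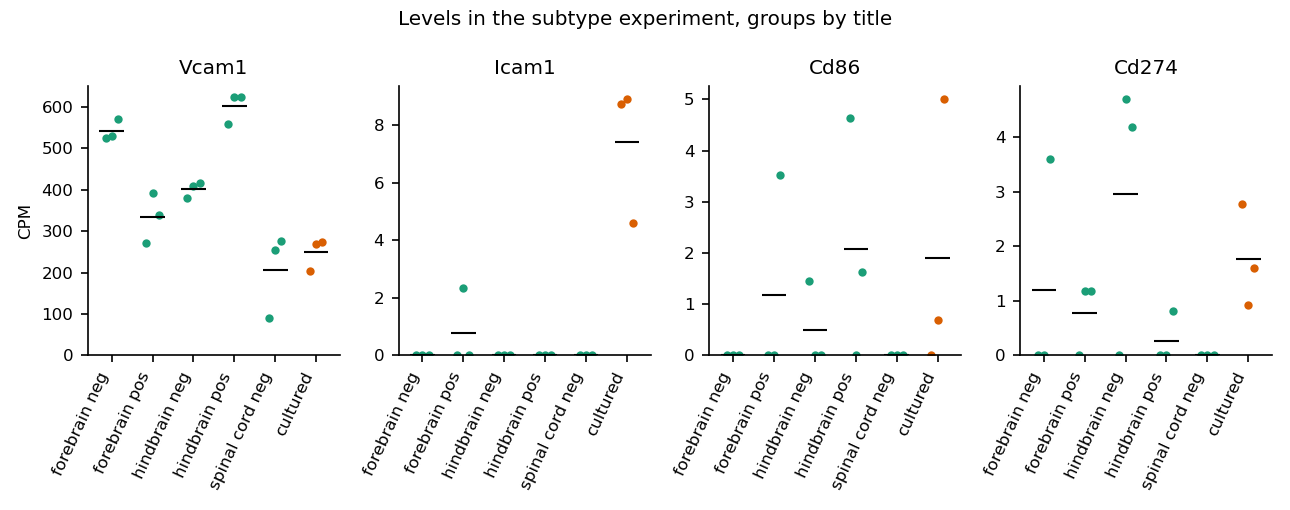
Level of Vcam1, Icam1, Cd86 and Cd274 (y axis, CPM) in the 18 libraries of the subtype experiment (points), by the group that the titles give (x axis), with a bar at each group mean. Icam1 is at 4.6 to 8.92 CPM in the 3 cultured libraries and at 0 in all but 1 of the isolated ones, and Vcam1 is present in every group.

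Related genes from lists of the same pathways give the setting in which these changes stood. Of 9 other checkpoint ligands tested of 11 listed, 1 was called higher and 2 lower in spinal cord at score 4. The gene called higher was Lgals9 (galectin-9, a TIM-3 ligand), at 24.8 ± 14.1 against 1.6 ± 1.7 CPM (SD, n = 6 and 5, 15.5 times higher, edgeR adjusted p = 0.00172). The larger fitted fall was that of Fgl1, a LAG-3 ligand, at 0 reads against 2.1 ± 1.83 CPM (adjusted p = 0.00866). Its control level was close to the 0.86 to 1.49 CPM that 3 reads make in those libraries, so no fold is given. Fgl1 was not called at score 1 (adjusted p = 0.247) or in the chronic phase (0.537). Of 7 other costimulatory ligands tested of 9 listed, 0 were called by edgeR at that stage, with 1 at an unadjusted p under 0.05 and 0 called by DESeq2. Without score 4 replicate 2, the library with the high myeloid sum, 2 of the 7 were called lower, and they are named here after their values were seen: Icosl, the ICOS ligand (log2 fold change -3.52 ± 0.57, SE, edgeR adjusted p = 9.91e-07), and Cd70, the CD27 ligand (-4.98 ± 1.34, adjusted p = 0.00377). Their CPM are not given here, and for a group with 0 reads such a fitted size depends on the prior count of the fit. Of 13 other adhesion molecules 2 were called lower and 0 higher, and without that library 3 were called lower, as were 3 of the checkpoint ligands. The largest fall among them was that of Jam2, a junctional adhesion molecule, from 148 ± 43.5 to 15.7 ± 3.73 CPM (9.4 times lower, adjusted p = 2.98e-16), and like Vcam1 it was not called in hindbrain. Of 4 genes that act on the surface turnover of these ligands (Cmtm4, Cmtm6, Adam10 and Adam17), 0 were called, with 1 at an unadjusted p under 0.05 and 0 called by DESeq2. The background of that comparison was 17.9%, and the list medians on the log2 scale were 0.46, 0.00, 0.00 and 0.19 beside 0.00 for all genes.

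Of 9 T cell receptors of the 7 ligands, 3 were called higher in spinal cord at score 4 (background 17.9%), namely Itgal, Itgb2 and Itgb7, which encode integrin chains. Itgal, the LFA-1 chain that binds ICAM-1, was at 12.1 ± 22.1 CPM against 0 reads in controls, at least 10.7-fold higher (edgeR adjusted p = 0.000308). Without score 4 replicate 2 its mean was 3.12 ± 2.13 CPM (n = 5) and the call was kept (adjusted p = 0.0069). In hindbrain GLASTpos cells 5 of the 9 were called higher at score 1 (background 1.49%) and at score 4 (2.03%), and in GLASTneg cells 0 (0.643%) and 1 (0.729%). T cell and myeloid marker sums were higher in the same groups, with T cell sums of 13.3 to 287 CPM in score 4 hindbrain GLASTpos libraries and 0 to 3.44 CPM in their controls.

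In the interferon-gamma list 4 of 10 genes were called higher and 0 lower in spinal cord at each EAE stage, where 6.17%, 17.9% and 14.7% of all genes were called. Irf1, a transcription factor induced by interferon-gamma, was at 494 ± 151 CPM at score 4 against 16.8 ± 11.3 in controls (SD, n = 6 and 5, log2 fold change 4.89 ± 0.52, edgeR adjusted p = 3.48e-12). In hindbrain Irf1 was called at score 1 and score 4 in either population and in neither population in the chronic phase, the pattern of calls that Cd274 had there. Of 14 genes of the TNF and NF-kappaB list 4 were called higher and 1 lower in spinal cord at score 4, and 2 and 1 without score 4 replicate 2. Tnfaip3, an inhibitor of this signal, was at least 5.78-fold higher (edgeR adjusted p = 0.00344), a mean of 6.57 ± 12.9 CPM that was 1.32 ± 1.14 CPM without that library (n = 5, adjusted p = 0.0342). Nfkb1, a subunit of the factor, went from 52.4 ± 29.6 to 21.6 ± 15.6 CPM (-1.28 ± 0.39, adjusted p = 0.0109). Nfkbia, a feedback inhibitor, was called higher in hindbrain GLASTpos cells at score 1 (1.39 ± 0.32, adjusted p = 0.00838) and score 4 (1.11 ± 0.32, adjusted p = 0.0444), and in spinal cord at score 4 it was not (0.50, adjusted p = 0.253, and -0.21, adjusted p = 0.686, without score 4 replicate 2).

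The genes whose levels over the 12 EAE group means were most like each ligand were found among 13267 genes by Pearson's r of log2(mean CPM + 1). For Cd274 they included Trim21 (r = 0.982) and Dtx3l (0.981), and for Icam1 they were Igtp (0.979), Irgm1 (0.972) and Tap1 (0.969). For Vcam1 they were Smpd2 (0.992), Clu (0.991) and Dmac2 (0.989). Those of Cd86 were Anxa3 (0.955), Ncf1 (0.899) and Klf4 (0.898), and rest on the score 4 spinal cord mean that 1 library sets. The 12 points of each r share their libraries, depth and cell makeup, and the r are given as a description.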

How the data were processed

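RNA of sorted and cultured mouse astrocytes was made into QuantSeq 3′ FWD libraries. Per the labels and the study's methods, the authors used HISAT 0.1.5 for alignment to GRCm38, SAMtools (version not given in the sources used here) and HTSeq 0.6.1p1 in union mode for counting reads per gene, and the deposited values are raw counts per gene in 2 tables, 1 for EAE and 1 for the subtypes. The strand setting and molecular identifiers are not given in the sources used here, so floors cover counting error only. A table of the study that names the subtype columns was used only for its group names.

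Groups came from the sample titles, in which A was read as GLASTneg and AG as GLASTpos cells. Genes with at least 10 counts in total were tested with edgeR 4.0.16 (TMM scaling, group means, glmQLFit and glmQLFTest, Benjamini-Hochberg adjustment over 23324, 14957 or 17126 genes, R 4.3.3), on a log2 scale. Standard errors of edgeR log2 fold changes were derived as the absolute log2 fold change divided by the square root of the F statistic. A fold against a group with 0 reads was computed against a floor of 3 counts per library. Levels are TMM-scaled CPM. Marker ratios were tested with exact permutation tests (scipy 1.17.1). The fit was tested on simulated data with known changes. Alternatives were RLE scaling, 2 other filters, DESeq2 1.42.0, limma-voom 3.58.1 with the first title number as a random block, terms for replicate and S number, subsets of libraries, other group names and leave-one-out fits, which kept the trended dispersion of the fit to all libraries. Replicate files of 1 group differed by more than sampling noise.

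The 7 genes and the lists of related genes and markers were chosen with earlier results of these data known. Related genes are named where they had the largest called change of their list in each direction in spinal cord at score 4, as are Irf1 and Nfkbia, and the 3 genes most like a ligand whose highest group mean is at least 5 CPM. A gene that this rule also names is not reported here.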

Additional observations from a re-analysis of the deposited data

Results flagged for a closer look

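Of 49 groups of 4 to 6 EAE libraries in which 1 of the 7 genes had reads, single libraries stood apart in 13 by Dixon's test at the 95% level. This test for a lone extreme value assumes normal values, for which chance gives about 1 in 20. A group with reads in 1 library and 0 in the others always has the largest statistic. For the rarely read genes that rate is therefore no yardstick. Score 4 spinal cord replicate 2 did so for Cd86 (27.4 CPM, next highest 3.55), Cd40 (8.09 CPM, all others 0) and Icam1 (19.8 CPM, next 4.51). It is the library with a myeloid marker sum of 3156 CPM. Score 1 spinal cord replicate 2 did so for Vcam1 (162 CPM, next 60.5) and had the highest astrocyte marker sum of its group, 22252 CPM.

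The others rest on 46 reads or fewer. In chronic spinal cord, replicate 6 stood apart for Cd80 and for Cd40 (1.1 CPM and 4 reads each) and replicate 1 for Icam1 (10.8 CPM). In hindbrain GLASTpos cells, chronic replicate 2 did so for Pdcd1lg2 (1.38 CPM) and Cd86 (3.59 CPM), score 1 replicate 4 for Cd86 (8.71 CPM), score 4 replicate 2 for Cd80 (1.99 CPM) and control replicate 3 for Cd40 (1.31 CPM). In hindbrain GLASTneg cells, chronic replicate 3 did so for Icam1 (4.44 CPM).

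The change of Vcam1 from controls differed between spinal cord and hindbrain GLASTneg cells in a test of the difference itself, by -3.75 on the log2 scale at score 4 (edgeR adjusted p = 3.72e-10) and by -3.99 in the chronic phase (adjusted p = 5.49e-11). Every spinal cord library of both stages was below every spinal cord control.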

How the results depend on the processing

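No call of the 7 genes changed direction under any alternative. Leaving out 1 library at a time gave 10 to 10 calls in spinal cord (10 with all libraries), 2 to 4 in hindbrain GLASTneg (3), 3 to 4 in hindbrain GLASTpos cells (4), 3 to 5 between stages (5), 2 to 4 for the difference between spinal cord and hindbrain GLASTneg responses (2), 0 to 0 between hindbrain responses (0), 2 to 2 between controls (2), 0 to 1 in FVB/N (0) and 1 to 2 for culture (1). The count for hindbrain GLASTneg was 2 without any 1 of its controls, that between stages was 3 without chronic hindbrain GLASTpos replicate 2, and that of the response difference was 4 without score 4 hindbrain GLASTpos replicate 1 or score 1 spinal cord replicate 2. The FVB/N count was 1 without the library titled hindbrain GLASTneg replicate 2 or spinal cord GLASTneg replicate 2 or 3, and that for culture 2 without forebrain GLASTneg replicate 1. In FVB/N the replicate block gave 1 call (Vcam1, -1.01, adjusted p = 0.00267), as did dropping the fold limit. For culture filterByExpr, which removed Icam1, and DESeq2 gave 0 calls and dropping the fold limit gave 2. The replicate numbers did not pair the libraries (mean correlation of deviations -0.004 for EAE libraries that share one). With the replicate block each other count of calls stayed as it was. For the 40 pairs of EAE libraries that share the first number of the title, the mean was 0.042, against -0.005 for other pairs of the same stage. The consensus correlation of limma-voom with that number as a block was 0.038. The Cd86 calls in spinal cord at score 4 were lost with a term for the S number (adjusted p = 0.328 against controls and 0.295 against score 1), and Icam1 at score 1 in hindbrain GLASTpos cells was lost in a fit to that population alone (0.0803). The cause was not tested. In the EAE libraries Cd40 had more than 3 reads in 7, Cd80 in 2 and Pdcd1lg2 in 1, so few values stand behind these genes.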
